A study of Homo sapiens with 6 samples.

Results

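The genes described here encode 4 families of enzymes that handle drugs, steroids, bile acids and other foreign or fat-soluble compounds: cytochrome P450 enzymes (CYP), UDP-glucuronosyltransferases (UGT), sulfotransferases (SULT) and cytosolic, mitochondrial and peroxisomal glutathione S-transferases (GST). They were chosen by gene symbol, with the CYP1 genes, the bile acid enzymes CYP7A1, CYP7B1, CYP8B1 and CYP27A1, the sterol enzyme CYP51A1 and pseudogenes left out. Of 96 matching symbols, 8 were left out by name and 2 as pseudogenes, which left 86 of the 24241 genes tested: 44 CYP, 18 UGT, 10 SULT and 14 GST genes. CYP2D7, commonly classed as a pseudogene, stayed among them because its symbol carries no P.

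Verteporfin, a porphyrin used in photodynamic therapy, was given at 0.75 µM to HepG2 cells, a line derived from a human liver tumour, and total RNA was taken at 24 hours for 3 arrays. These arrays were set against 3 others from HepG2 cells given the solvent DMSO for 24 hours. All cells grew in RPMI medium, HepG2 is a single cell line, and the labels give neither the light exposure nor whether the 3 samples of a group were separate cultures, so the p-values cover no more than the spread among these arrays, part of which can be technical. Each array held 1 biotin-labelled sample, and the values are RMA expression levels on a log2 scale.

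A CYP enzyme adds oxygen to its substrate with electrons passed on by a reductase or by cytochrome b5. UGT, SULT and GST enzymes then attach glucuronic acid, sulfate or glutathione, which makes the product more soluble and ready for export. In liver much of this gene set is transcribed under nuclear receptors such as PXR and CAR and under hepatocyte factors such as HNF1, HNF4 and C/EBP proteins, and several GST genes answer to the oxidative stress factor NRF2. HepG2 cells are known for low levels of many drug-metabolising CYP enzymes compared with hepatocytes.

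The 5 members that changed at least 4-fold are shown by the 250 bases before their annotated start site, so that the promoter letters stand beside the values that follow. SULT2A1, UGT2B10, SULT1E1 and GSTM4 were lower with verteporfin and CYP4F11 was higher. Capitals mark matches, on either strand, to any of 5 motifs: AGGTCA, the hexamer that many nuclear receptors bind; GTTAAT, the core bound by HNF1; TTGCNNAA, bound by C/EBP proteins; TGACNNNGC, the core of the antioxidant response element bound by NRF2; and TATAAA, the TATA box. Sequences are those of RefSeq on build GRCh38.p14, written from 5′ to 3′ along the gene.
SULT2A1, chr19:47886316-47886565, minus strand: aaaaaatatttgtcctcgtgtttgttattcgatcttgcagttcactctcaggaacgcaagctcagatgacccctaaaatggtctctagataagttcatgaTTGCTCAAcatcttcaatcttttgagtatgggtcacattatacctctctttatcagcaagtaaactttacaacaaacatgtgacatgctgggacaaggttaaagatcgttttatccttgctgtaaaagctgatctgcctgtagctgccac
UGT2B10, chr4:68815744-68815993, plus strand: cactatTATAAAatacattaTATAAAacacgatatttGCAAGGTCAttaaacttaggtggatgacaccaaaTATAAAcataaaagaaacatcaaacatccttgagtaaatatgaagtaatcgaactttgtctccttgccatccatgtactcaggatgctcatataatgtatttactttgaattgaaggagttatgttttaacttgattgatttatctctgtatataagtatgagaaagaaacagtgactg
SULT1E1, chr4:69860146-69860395, minus strand: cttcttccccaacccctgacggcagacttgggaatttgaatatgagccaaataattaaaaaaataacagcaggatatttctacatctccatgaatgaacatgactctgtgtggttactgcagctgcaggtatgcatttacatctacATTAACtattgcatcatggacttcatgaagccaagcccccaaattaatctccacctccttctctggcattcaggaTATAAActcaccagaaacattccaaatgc
GSTM4, chr1:109655849-109656098, plus strand: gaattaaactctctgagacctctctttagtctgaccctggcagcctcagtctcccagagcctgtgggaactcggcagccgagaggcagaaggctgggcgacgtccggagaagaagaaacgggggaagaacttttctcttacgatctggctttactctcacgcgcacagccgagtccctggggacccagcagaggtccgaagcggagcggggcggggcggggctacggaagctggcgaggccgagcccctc
CYP4F11, chr19:15934868-15935117, minus strand: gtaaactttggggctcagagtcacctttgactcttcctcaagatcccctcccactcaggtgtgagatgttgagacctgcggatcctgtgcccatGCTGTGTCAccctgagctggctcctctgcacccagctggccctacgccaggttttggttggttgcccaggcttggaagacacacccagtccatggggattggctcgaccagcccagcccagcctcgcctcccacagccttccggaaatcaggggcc

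SULT2A1 held a C/EBP match that begins 150 bases before the start. SULT1E1 held an HNF1 match 104 bases before the start and a TATA box 29 bases before it. UGT2B10 held 3 TATA box matches far from the start, and an AGGTCA at 210 bases that overlaps an antioxidant element match at 213 bases. CYP4F11 held an antioxidant element match at 156 bases, and GSTM4 held none of the 5 motifs in this window. The table of promoters covered 69 of the 86 members and 17284 of the genes tested. Among them AGGTCA was found in 24.6% of members and 10.7% of all genes, GTTAAT in 13.0% and 5.14%, TTGCNNAA in 11.6% and 7.62%, TGACNNNGC in 15.9% and 11.7%, and TATAAA in 29.0% and 9.31%. In the promoters of the 11 members that passed the test given below and changed at least 2-fold, the shares in this order were 9.09%, 18.2%, 27.3%, 27.3% and 45.5%. These stand for 1, 2, 3, 3 and 5 promoters, so 1 gene weighs heavily in each share. Whether a motif goes with a change was not tested. A match is a run of letters, not a measured binding site, and no array value bears on whether a factor bound there.

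Over all genes the correlation was 0.995 to 0.997 between arrays of a group and 0.969 to 0.977 across groups. Hepatocyte markers were all well above the median signal of 4.83 in both groups (8 of 9 listed genes measured, group means 7.56 to 12.5 with verteporfin and 10.3 to 13.4 with DMSO). Of the 8 markers 7 fell (87.5%, beside 25.6% of all genes with a group mean above the median signal). The part of this fall in the members' falls was not tested. Of 12 markers of endothelial, macrophage, leukocyte, stellate and bile duct cells, 10 lay at or below the median signal in both groups. None passed the test in either direction by limma (2 had an unadjusted p under 0.05), and on a scale centred on reference genes 3 were higher. DES and COL1A1 were above the median signal, at log2 differences of 0.00 ± 0.09 and -0.12 ± 0.07 (SE). In total RNA, less transcript per cell and fewer cells that carry it cannot be told apart.

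Among the 86 members 25 passed the test (29.1%), close to the 28.5% of all genes that passed (limma, adjusted p under 0.05 over all genes). They leaned to one side: 23 members fell (26.7%) and 2 rose (2.33%), beside 14.3% of all genes in each direction. The median log2 difference, verteporfin minus DMSO, was -0.08 over the members and 0.00 over all genes tested. At least 2-fold changes were seen for 10 members that fell (11.6%, against 3.01% of all genes) and for 1 that rose (1.16%, against 2.71%). The 3 verteporfin arrays lay entirely below the 3 DMSO arrays for 24 members (27.9%, against 19.5% of all genes) and entirely above them for 6 (6.98%, against 19.6%).

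The balance depends on the scale. RMA sets every array to the same distribution. With each array centred instead on the mean of 8 reference genes, which shifts every log2 difference by 0.18, 18 members were lower and 13 higher, and the members' median was 0.10. Of those 13, 8 had both group means at or below the median signal, and 4 of the 8 reference genes themselves passed the test (3 lower and 1 higher).

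In 50 of the 86 members both group means lay at or below the median signal, with single arrays between 3.26 and 5.03. No array file that marks probe sets as detected was used here, so for these genes signal and background cannot be separated. Among the 29 CYP genes were CYP3A4, CYP2A6, CYP2B6, CYP2C8 and CYP2E1, main drug-metabolising enzymes of the liver, their relatives CYP3A43 and CYP2D7, and CYP2A13 and CYP2F1, known from the airways. Others were the steroid enzymes CYP11A1, CYP11B2 and CYP17A1, the vitamin D enzymes CYP2R1 and CYP27B1, the retinoid enzymes CYP26A1, CYP26B1, CYP26C1 and CYP27C1, and the cholesterol enzymes CYP39A1 and CYP46A1. The CYP4 genes among them, a family of mostly fatty acid hydroxylases, were CYP4A11, CYP4A22, CYP4B1, CYP4F2, CYP4F8, CYP4F12, CYP4F22, CYP4X1 and CYP4Z1. The 14 UGT genes were UGT1A4 to UGT1A10, UGT2A1, UGT2B4, UGT2B15, UGT2B17, UGT2B28, UGT3A1 and UGT3A2. The 4 SULT genes were SULT1B1, SULT1C3, SULT4A1 and SULT6B1, and the 3 GST genes were GSTA3, GSTM5 and GSTO2. Log2 differences over the 50 ran from -0.56 for CYP4F2 to 0.26 for CYP2E1. CYP4F12, CYP46A1 and UGT2B4 passed, all lower, so 3 of the 50; of all genes this dim 3.44% passed, 1.97% lower and 1.48% higher. The other 36 members had at least 1 group mean above the median signal and held the other 22 calls, 20 lower and 2 higher. A gene that is bright in 1 group alone enters that count through its difference, so it is given as a description, beside the 51.7% of all genes this bright that passed, 25.6% lower and 26.1% higher.

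**Figure D1:**
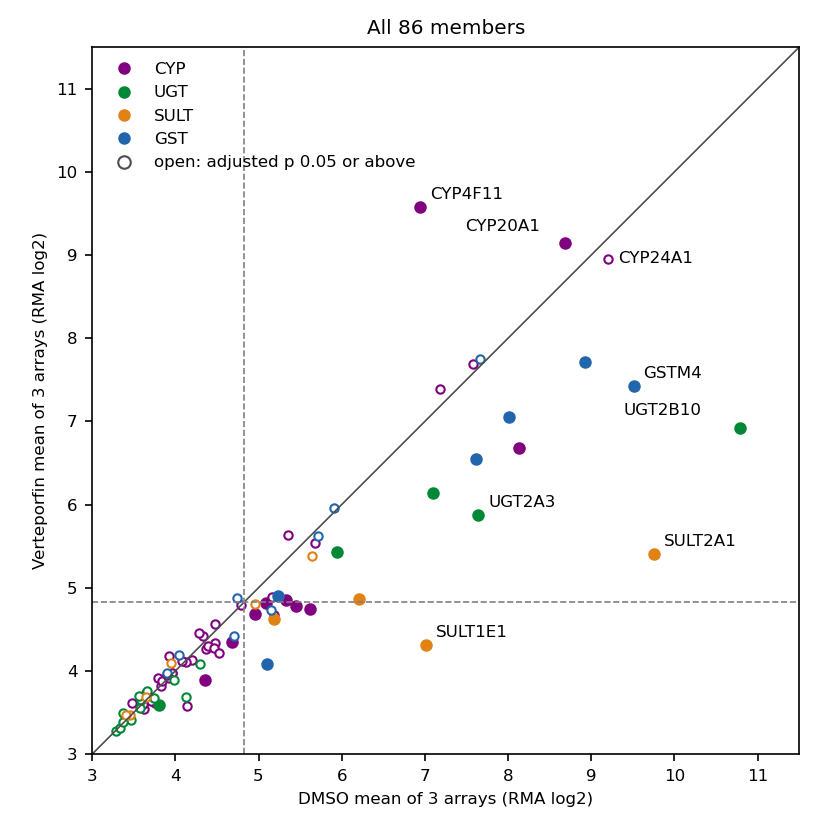
Mean RMA log2 level of each of the 86 members with verteporfin (vertical axis) and with DMSO (horizontal axis), over 3 arrays each; colours mark the families, filled points passed the test, dashed lines mark the median signal and the solid line marks equal levels. Most members crowd below the median signal of 4.83 in both groups, SULT2A1 and UGT2B10 lie farthest below the line of equal levels, and CYP4F11 is the 1 member far above it.

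Among CYP genes 2 rose and 8 fell of 44 measured (8 higher and 5 lower on the reference-gene scale). By limma 4.55% rose and 18.2% fell, beside 14.3% of all genes in each direction. The share that passed, 22.7%, was below the 28.5% of all genes. CYP4F11, an enzyme that hydroxylates the end of long-chain fatty acids and of the vitamin K side chain, was the member with the clearest rise. It read 9.65, 9.49 and 9.57 on the 3 verteporfin arrays, against 6.84, 6.91 and 7.07 on the 3 DMSO arrays. Every verteporfin array lay more than 2 log2 units above every DMSO array, and the level was 6.21-fold higher (2.63 ± 0.08 SE, adjusted p = 1.46e-06). CYP20A1, a P450 with no settled substrate, read 9.19, 9.11 and 9.13 with verteporfin, against 8.71, 8.72 and 8.60 with DMSO. The groups did not overlap, and the rise was 0.46 ± 0.06 on the log2 scale (1.38-fold, adjusted p = 0.000961).

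CYP2W1, an enzyme seen mainly in fetal tissue and tumours, had the deepest fall of the CYP genes. Its levels were 6.24, 6.99 and 6.81 with verteporfin, against 8.23, 7.93 and 8.23 with DMSO, a 2.73-fold lower level (-1.45 ± 0.19, adjusted p = 0.000692). The verteporfin arrays spread more (SD 0.39) than the DMSO arrays (SD 0.17), but all 3 lay below all DMSO arrays. CYP3A5, a drug-oxidising enzyme of the liver, read 4.74, 4.91 and 4.57 with verteporfin, against 5.56, 5.72 and 5.57 with DMSO (-0.88 ± 0.10, adjusted p = 0.000317). CYP19A1, the aromatase that makes oestrogens from androgens, read 4.72, 4.67 and 4.93, against 5.18, 5.57 and 5.62 with DMSO (-0.68 ± 0.13, adjusted p = 0.00488). Neither gene overlapped between groups, but their verteporfin means of 4.74 and 4.78 were below the median signal, so these values are differences of measured signal and not sizes of the change in transcript.

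Smaller falls were measured for CYP2U1, a fatty acid hydroxylase, with 4.83, 4.87 and 4.85 on the verteporfin arrays, against 5.39, 5.16 and 5.43 on the DMSO arrays (-0.48 ± 0.08, adjusted p = 0.00287). CYP4V2, a fatty acid hydroxylase whose loss causes a crystalline retinal disease, read 4.83, 4.70 and 4.91 with verteporfin, against 4.98, 5.14 and 5.16 with DMSO (-0.28 ± 0.08, adjusted p = 0.0350). CYP11B1, which makes cortisol in the adrenal gland, read 4.64, 4.76 and 4.65 with verteporfin, against 4.93, 5.07 and 4.88 with DMSO (-0.28 ± 0.07, adjusted p = 0.0258). The groups of these genes did not overlap, but all values lay within 0.7 of the median signal. CYP4F12, a fatty acid hydroxylase (-0.46 ± 0.10, adjusted p = 0.0108), and CYP46A1, which clears cholesterol from the brain (-0.33 ± 0.09, adjusted p = 0.0324), passed with both means below it. The calls of CYP4V2, CYP11B1 and CYP46A1 were lost in 7 of 12, 6 of 12 and 6 of 11 alternative fits.

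The other CYP genes with a mean above the median signal did not pass. CYP24A1, which inactivates vitamin D, read 8.55, 9.22 and 9.08 with verteporfin, against 9.23, 9.22 and 9.16 with DMSO (-0.25 ± 0.16, 95% interval -0.62 to 0.12, adjusted p = 0.334). Its groups overlapped, and verteporfin replicate 1 was the low array. CYP2S1, an enzyme found mostly outside the liver, was at 0.21 ± 0.08 (adjusted p = 0.102), and CYP2A7, whose product has no known activity, at 0.11 ± 0.17 (adjusted p = 0.728). CYP2D6, which oxidises many basic drugs, was at -0.14 ± 0.23 (adjusted p = 0.759), with DMSO replicate 1 at 6.26 and the other DMSO arrays at 5.30 and 5.49. CYP2J2, which makes epoxides of arachidonic acid, was at -0.27 ± 0.14 (adjusted p = 0.210), and CYP21A2, a step of adrenal steroid synthesis, at -0.52 ± 0.20 (adjusted p = 0.0970).

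**Figure D2:**
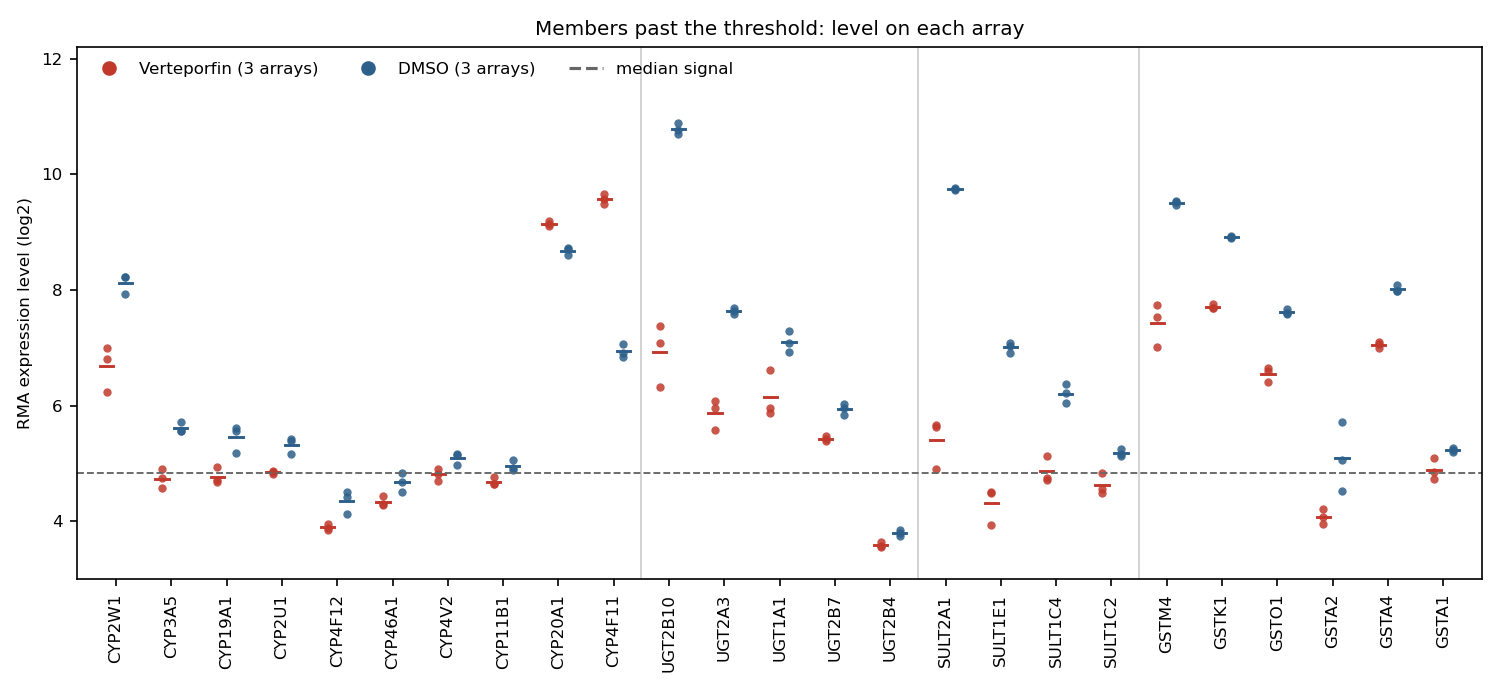
RMA log2 level on each array of the 25 members that passed the test, ordered by family (CYP, UGT, SULT, GST); red points are the 3 verteporfin arrays, blue points the 3 DMSO arrays, short bars the group means and the dashed line the median signal. The groups overlap for none of these genes, which were chosen by the test on the same arrays. Of all genes 19.6% lay entirely higher and 19.5% entirely lower. The verteporfin points lie higher only for CYP20A1 and CYP4F11, and GSTA2 has the widest DMSO spread (4.52, 5.06 and 5.72).

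UGT genes fell for 5 of 18 measured and rose for 0 by limma (6 had an unadjusted p under 0.05; on the reference-gene scale 4 were lower and 2 higher). The UGT share that passed, 27.8%, was close to the 28.5% of all genes, of which 14.3% passed in each direction. UGT2B10, which attaches glucuronic acid to the nitrogen of nicotine and of amine drugs, had the deepest fall. It read 6.32, 7.37 and 7.08 on the verteporfin arrays, against 10.77, 10.88 and 10.70 on the DMSO arrays. All verteporfin arrays lay more than 3 log2 units below all DMSO arrays, a 14.6-fold lower level (-3.86 ± 0.24, adjusted p = 1.70e-05), although they spread widely (SD 0.55, against 0.09 with DMSO).

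UGT2A3, which conjugates bile acids, read 5.58, 5.97 and 6.08 with verteporfin, against 7.64, 7.69 and 7.59 with DMSO. The groups stood clearly apart, and the level was 3.41-fold lower (-1.77 ± 0.12, adjusted p = 3.09e-05). UGT1A1, the enzyme that clears bilirubin, read 5.95, 6.61 and 5.87, against 7.09, 7.29 and 6.92 with DMSO (1.94-fold lower, -0.96 ± 0.20, adjusted p = 0.00711). The highest verteporfin array of UGT1A1 came within 0.4 of the lowest DMSO array. UGT2B7, which conjugates morphine, steroids and many other drugs, read 5.48, 5.42 and 5.40 with verteporfin, against 5.96, 6.03 and 5.84 with DMSO (-0.51 ± 0.07, adjusted p = 0.000906). UGT2B4, a bile acid conjugating enzyme, was at -0.20 ± 0.06 with means of 3.59 with verteporfin and 3.80 with DMSO (adjusted p = 0.0437), a call lost in 8 of 11 alternative fits.

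The remaining 7 UGT1A genes did not pass and had both means below the median signal. Genes of the UGT1A locus share their last exons and differ in the first, and since no source used here says where the probes of each set lie, it is uncertain how far their signals are separate. UGT1A10 came nearest to the threshold, at -0.44 ± 0.16 (adjusted p = 0.0900).

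SULT genes fell for 4 of 10 measured and rose for 0 by limma (4 had an unadjusted p under 0.05; on the reference-gene scale 4 were lower and 1 higher). The SULT share that fell was 40.0%, beside 14.3% of all genes. SULT2A1, the sulfotransferase of dehydroepiandrosterone and bile acids, had the deepest fall of all 86 members. It read 4.90, 5.63 and 5.67 with verteporfin, against 9.76, 9.73 and 9.75 with DMSO. The DMSO arrays agreed to within 0.04 and the verteporfin arrays came close to the median signal, and the measured level was 20.4-fold lower (-4.35 ± 0.19, adjusted p = 4.12e-06).

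SULT1E1, the oestrogen sulfotransferase, read 3.93, 4.51 and 4.50 on the verteporfin arrays, against 7.03, 7.09 and 6.90 on the DMSO arrays (-2.70 ± 0.15, adjusted p = 1.24e-05). All verteporfin arrays were below the median signal, so the difference is one of measured signal. SULT1C4, a sulfotransferase mainly of fetal tissues, read 4.71, 4.75 and 5.14, against 6.22, 6.04 and 6.37 with DMSO (2.53-fold lower, -1.34 ± 0.13, adjusted p = 0.000157). Its neighbour SULT1C2, of the same subfamily, read 4.49, 4.83 and 4.55, against 5.17, 5.13 and 5.26 with DMSO (-0.56 ± 0.10, adjusted p = 0.00315). The verteporfin mean of SULT1C2, 4.625, and the SULT1C4 arrays at 4.71 and 4.75 were below the median signal. For both genes the difference is therefore one of measured signal. The phenol sulfotransferase SULT1A1 (-0.26 ± 0.12, adjusted p = 0.182) and the cholesterol sulfotransferase SULT2B1 (-0.16 ± 0.08, adjusted p = 0.200) did not pass.

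GST genes fell for 6 of 14 measured and rose for 0 by limma (7 had an unadjusted p under 0.05; on the reference-gene scale 5 were lower and 2 higher). The GST share that fell was 42.9%, beside 14.3% of all genes. A group mean above the median signal was seen for 11 of the 14, and of all genes this bright 25.6% fell. Genes bright in 1 group alone, such as GSTA2 with DMSO and GSTP1 with verteporfin, enter the 11 through their difference. The count is therefore given as a description. GSTM4, a mu class enzyme, read 7.53, 7.74 and 7.01 with verteporfin, against 9.46, 9.52 and 9.54 with DMSO. Verteporfin replicate 3 was the lowest array, every verteporfin array lay more than 1.5 log2 units below every DMSO array, and the level was 4.24-fold lower (-2.08 ± 0.17, adjusted p = 6.04e-05). GSTK1, the kappa class enzyme of mitochondria and peroxisomes, read 7.76, 7.70 and 7.69, against 8.91, 8.92 and 8.93 with DMSO. The SDs were 0.04 with verteporfin and 0.01 with DMSO, and the level was 2.31-fold lower (-1.21 ± 0.06, adjusted p = 5.85e-06). GSTO1, an omega class enzyme that reduces dehydroascorbate, read 6.60, 6.42 and 6.65, against 7.67, 7.59 and 7.59 with DMSO (2.09-fold lower, -1.07 ± 0.08, adjusted p = 3.64e-05).

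GSTA4, which conjugates reactive aldehydes formed from oxidised lipids, read 7.00, 7.10 and 7.07 with verteporfin, against 7.97, 8.08 and 7.98 with DMSO (1.94-fold lower, -0.95 ± 0.07, adjusted p = 2.78e-05). GSTA2, a main alpha class enzyme of the liver, read 4.07, 3.96 and 4.22, against 4.52, 5.06 and 5.72 with DMSO (-1.02 ± 0.26, adjusted p = 0.0223). All its verteporfin arrays and DMSO replicate 1 lay below the median signal, and its call was lost in 3 of 12 alternative fits (adjusted p up to 0.0641). GSTA1, also a main alpha class enzyme of the liver, read 4.85, 5.10 and 4.74, against 5.27, 5.20 and 5.24 with DMSO (-0.34 ± 0.10, adjusted p = 0.0324), a call lost in 8 of 12 (adjusted p up to 0.201).

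GSTA1 and GSTA2 are close copies, and how far their probe sets read both transcripts was not tested, so their levels are uncertain. Their upstream stretches, shown to set the neighbours side by side, are close too: in the 250 bases before their start sites 243 bases are the same (97.2%) and 7 differ, and capitals mark the differing bases (RefSeq, GRCh38.p14).
GSTA1, chr6:52803817-52804066, minus strand: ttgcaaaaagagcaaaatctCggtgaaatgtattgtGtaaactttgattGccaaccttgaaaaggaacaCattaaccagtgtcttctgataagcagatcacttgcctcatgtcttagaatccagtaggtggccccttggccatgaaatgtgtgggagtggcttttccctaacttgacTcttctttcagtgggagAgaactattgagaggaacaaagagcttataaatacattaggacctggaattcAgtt
GSTA2, chr6:52763476-52763725, minus strand: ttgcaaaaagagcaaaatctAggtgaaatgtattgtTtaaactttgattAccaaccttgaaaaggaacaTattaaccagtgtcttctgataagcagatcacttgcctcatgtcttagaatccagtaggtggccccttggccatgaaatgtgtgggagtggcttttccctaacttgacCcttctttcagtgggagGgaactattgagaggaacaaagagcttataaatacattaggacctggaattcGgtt
These bases lie before the transcript and are not what the arrays read. The same stretches of GSTM4 and GSTM2 were 51.3% identical over their alignment, and those of SULT1C2 and SULT1C4 42.5%. Those of UGT2B10 and UGT2B7 were 62.7% identical, and those of CYP4F11 and CYP4F2 63.0%. No pair of unrelated genes was set beside them, so the share that unrelated stretches reach is not known here.

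GSTM3, a mu class enzyme, read 7.66, 7.82 and 7.76 with verteporfin, against 7.71, 7.59 and 7.70 with DMSO (0.08 ± 0.07, 95% interval -0.09 to 0.24, adjusted p = 0.528). Its groups overlapped, and the interval leaves out changes as large as that of GSTM4. GSTP1, the pi class enzyme, was at 0.14 ± 0.08 (adjusted p = 0.287), with means of 4.88 with verteporfin and 4.74 with DMSO, near the median signal. GSTZ1, which acts in tyrosine breakdown, was at 0.05 ± 0.12 (adjusted p = 0.852). GSTA5 was at -0.09 ± 0.13 (adjusted p = 0.705), and GSTM2 at -0.42 ± 0.17 (adjusted p = 0.116).

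**Figure D3:**
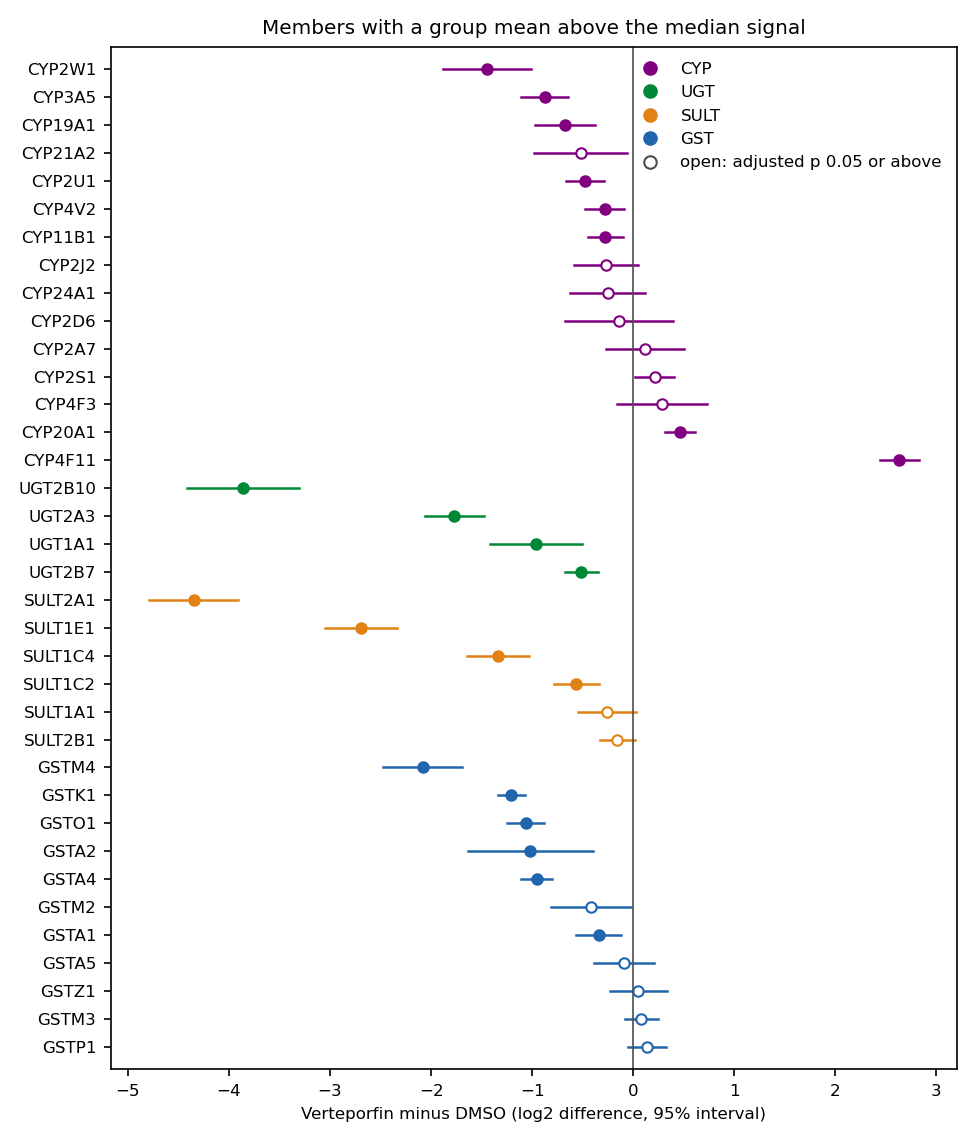
Log2 difference, verteporfin minus DMSO, of the 36 members with a group mean above the median signal, by family, with 95% intervals from the moderated SE; open points did not pass. The points run from -4.35 for SULT2A1 to 2.63 for CYP4F11, and filled points right of 0 are those of CYP20A1 and CYP4F11.

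Many members lie beside each other in the genome, and neighbours differed in what was measured. RefSeq genes of GRCh38.p14, used here for gene order alone, held 85 of the 86 members. One run holds the members UGT2B17, UGT2B15, UGT2B10, UGT2A3, UGT2B7, UGT2B28, UGT2B4, UGT2A1, SULT1B1 and SULT1E1. Other protein-coding genes lie between UGT2B7 and UGT2B28 and between UGT2A1 and SULT1B1. In this run the adjoining UGT2B10, UGT2A3 and UGT2B7 fell, as did SULT1E1 at the far end. Between UGT2B7 and SULT1E1 lie UGT2B4, which fell by 0.20 on the log2 scale with both means below the median signal, and UGT2B28, UGT2A1 and SULT1B1, which did not pass. These last, with log2 differences of 0.01, -0.02 and 0.02, had both means below the median signal.

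CYP4F11 rose beside CYP4F2, its direct neighbour and an enzyme that inactivates vitamin K and leukotriene B. CYP4F2 read 3.62, 3.65 and 3.47 with verteporfin, against 3.94, 4.61 and 3.89 with DMSO, all below the median signal (-0.56 ± 0.18, adjusted p = 0.0558). CYP4F3, which inactivates leukotriene B in neutrophils, was at 0.28 ± 0.19 (adjusted p = 0.377). GSTM4 fell beside GSTM2, and GSTO1 beside GSTO2, which was at -0.29 with both means below the median signal. No difference between neighbours was tested. How far the probe sets of related genes, here and among the UGT2 genes, read each other's transcripts was not tested either.

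**Figure D4:**
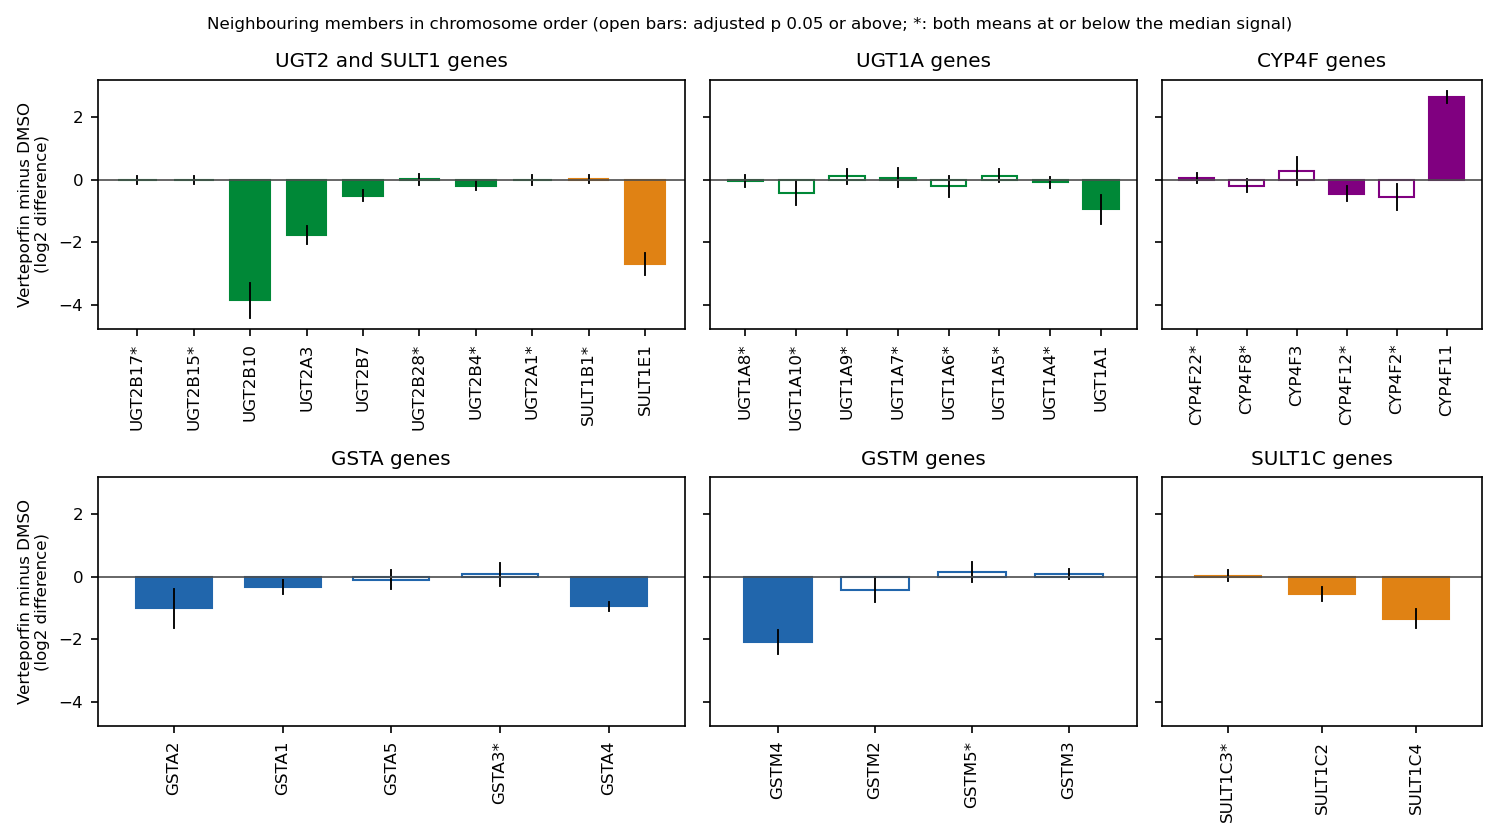
Log2 difference, verteporfin minus DMSO, of members in 6 gene runs, drawn as bars in RefSeq gene order with 95% intervals. Filled bars passed the test, and an asterisk marks genes with both means at or below the median signal. Other genes can lie between the bars, and CYP4F12 and CYP4F2 are 6 protein-coding steps apart. In the UGT2 run the bars of UGT2B10, UGT2A3 and SULT1E1 reach -3.86, -1.77 and -2.70, and in the CYP4F run the bar of CYP4F11 reaches 2.63.

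The enzymes depend on electron donors, cosubstrates and regulators, and 64 of 75 listed genes of these kinds were measured. Of them 16 rose and 24 fell (62.5% called, beside 28.5% of all genes), with a median of -0.09. Most were bright: 51 of the 64 had a group mean above the median signal, and of all genes this bright 51.7% passed. Of these 51 genes 31.4% rose and 47.1% fell, beside 26.1% and 25.6% of all genes this bright. Here and in the lists that follow, a gene bright in 1 group alone enters such a count through its difference. These shares are therefore given as descriptions. On the reference-gene scale 19 of the 64 were higher and 18 lower. Among 5 redox partners 1 rose and 4 fell (1 and 2 on the reference-gene scale). POR, the reductase that feeds electrons to microsomal CYP enzymes, read 10.90, 10.72 and 10.82 with verteporfin, against 10.23, 10.19 and 10.13 with DMSO (0.63 ± 0.07, adjusted p = 0.000303). CYB5A, the microsomal cytochrome b5, read 9.19, 9.56 and 9.26, against 10.76, 10.94 and 10.83 with DMSO (-1.51 ± 0.11, adjusted p = 3.22e-05). For each gene the groups did not overlap: POR transcript was higher and CYB5A transcript lower on every verteporfin array. CYB5B, the form of the outer mitochondrial membrane (-1.06 ± 0.07), and CYB5R3, the b5 reductase (-0.25 ± 0.06, lost in 4 of 12 alternative fits), fell too.

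Of 11 cosubstrate genes 6 rose and 4 fell (6 and 2 on the reference-gene scale). Of the 10 above the median signal 60.0% rose and 40.0% fell, beside 26.1% and 25.6% of all genes this bright. The cystine transporter SLC7A11 rose by 2.40 ± 0.09, and GCLM and GCLC, the subunits of the enzyme that commits glutamate to glutathione, by 2.10 ± 0.09 and 1.96 ± 0.07. The list also holds GSR, which regenerates glutathione and rose by 0.44 ± 0.06, and GSS, which completes its synthesis and fell (-0.32 ± 0.09, adjusted p = 0.0328, a call lost in 6 of 12 alternative fits). Both were added with their values known. PAPSS1, which makes the sulfate donor of the SULT enzymes, read 8.87, 9.01 and 8.88 with verteporfin, against 10.07, 9.99 and 10.03 with DMSO, a 2.16-fold lower level (-1.11 ± 0.07, adjusted p = 1.48e-05). UGDH, which makes the glucuronic acid donor of the UGT enzymes, was picked out with its value known and rose by 0.46 ± 0.06 (adjusted p = 0.000840).

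Of 18 receptors and regulators 5 rose and 5 fell (7 and 5 on the reference-gene scale). Of the 17 above the median signal 29.4% rose and 29.4% fell, close to the 26.1% and 25.6% of all genes this bright. CEBPB, a stress-responsive C/EBP factor, rose by 1.98 ± 0.09. CEBPA, the C/EBP factor of mature hepatocytes, added with its value known, went the other way (-0.85 ± 0.10, adjusted p = 0.000530). BACH1, a repressor at antioxidant elements, rose by 0.82 ± 0.08. RXRA, the shared partner of PXR and CAR, fell by 0.77 ± 0.07 on the log2 scale, and the hepatocyte factor ONECUT1 by 0.99 ± 0.08, with a verteporfin mean below the median signal. NR1I3, the receptor CAR, had both means below the median signal (0.03 ± 0.09), the dioxin receptor AHR was at -0.23 ± 0.08 (adjusted p = 0.0823), and NFE2L2, which encodes NRF2, at -0.06 ± 0.07 (adjusted p = 0.661). NR1I2, the receptor PXR, was not analysed here.

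Of 18 other oxidising and hydrolysing enzymes 9 fell and 2 rose (7 and 2 on the reference-gene scale). Of the 13 above the median signal 69.2% fell and 15.4% rose, beside 25.6% and 26.1% of all genes this bright. The flavin oxygenase FMO5 (-2.59 ± 0.14), the epoxide hydrolase EPHX2 (-1.84 ± 0.09) and the amine oxidase MAOB (-1.47 ± 0.09) fell. On the verteporfin arrays EPHX2 read 4.57, 4.55 and 4.66, all below the median signal, so how far its transcript fell is uncertain. The quinone reductase NQO2 rose (0.75 ± 0.06). Of 12 other conjugating enzymes 2 fell and 2 rose (2 and 3 on the reference-gene scale). Of the 6 above the median signal 33.3% fell and 33.3% rose. Of the membrane-bound glutathione transferases measured, 1 rose, 1 fell and 1 did not pass. MGST1 read 9.55, 9.55 and 9.48 with verteporfin, against 8.87, 8.93 and 8.79 with DMSO (0.67 ± 0.07). MGST2 read 8.61, 8.66 and 8.65, against 9.66, 9.66 and 9.74 with DMSO (-1.04 ± 0.06). MGST3, added with its value known, was at 0.00 ± 0.06 (adjusted p = 0.985) and overlapped between groups. The histamine methyltransferase HNMT fell (-1.21 ± 0.08), and the thiopurine methyltransferase TPMT rose (0.24 ± 0.06, a call lost in 5 of 12 alternative fits).

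**Figure D5:**
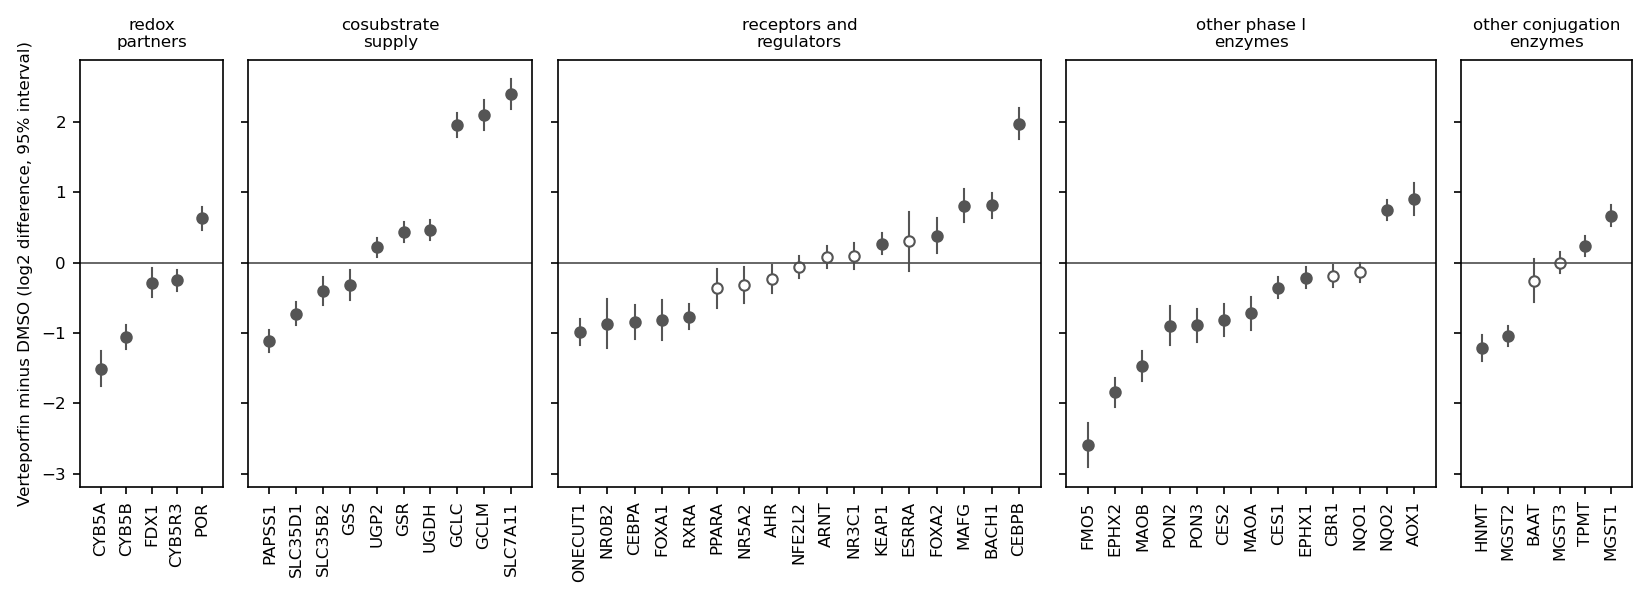
Log2 difference, verteporfin minus DMSO, with 95% intervals, of the listed partner genes that had a group mean above the median signal, in 5 panels by role; open points did not pass. SLC7A11, GCLM, GCLC and CEBPB lie at 1.96 or higher, and FMO5 is the lowest point at -2.59.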

How the data were processed

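Total RNA of HepG2 cells was measured on 6 arrays, 3 with verteporfin and 3 with DMSO, grouped by the sample titles. The deposited values are on a log2 scale (3.17 to 13.8, read from the values) and were made by the authors with RMA, per the submitters' processing notes; no source used here gives its version, the array model or where probes lie. Sorted values were identical on all arrays, so only changes relative to the array's distribution can be seen, and with 3 arrays a group their number limits the precision.

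Of 25582 probe sets 24244 had 1 gene symbol in the platform annotation, 0 had several and 1338 had none. For 3 symbols with several probe sets the brightest was used, giving 24241 genes. The test was limma 3.58.1 (lmFit and eBayes, run in R 4.3.3; verteporfin minus DMSO, two-sided, Benjamini-Hochberg over all genes, threshold 0.05), after a test on simulated data. SE is the moderated standard error. The median signal is the median of all values. Exact permutation of 3 against 3 arrays cannot give a p below 0.1 and was not used.

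Values are given for every member that passed, that had a group mean above the median signal, or that lay near the threshold. Of each list of partner genes up to 4 with the smallest p are named, with POR, NR1I3, AHR and NFE2L2; UGDH, GSS, GSR, CEBPA and MGST3 were added with their values known. Members and lists were chosen with earlier results of these data known. Alternatives were each array left out, a replicate block, other variance priors, a signal filter, other scalings, the mean of a symbol's probe sets and a 2-fold minimum. The scaling set used 8 of 10 listed housekeeping genes, those with a probe set. Deviations of same-numbered arrays correlated at -0.02, -0.11 and -0.01, so no shared effect of the replicate number was seen. The labels do not say whether the numbers mark pairs. Promoters were matched by gene ID, and those of members changed at least 4-fold are shown.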

Additional observations from a re-analysis of the deposited data

How the results depend on the processing

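Of the 25 members called, 19 kept their call in each of the alternative fits run for them, 6 lost it in at least 1 (CYP11B1, CYP46A1, CYP4V2, GSTA1, GSTA2 and UGT2B4), and 0 changed sign. The 2-fold minimum is not counted among these fits. Some fits could hardly change a call: centring on the median of the brighter genes shifted log2 differences by -0.0003, and averaging probe sets concerned 3 symbols. Leaving out 1 array gave 2 to 3 members higher and 17 to 22 lower. For the partner genes it gave 13 to 16 higher and 20 to 23 lower. The 17 came without verteporfin replicate 1. Of the 23 members that fell, that array was the lowest verteporfin array for 10, replicate 2 for 4 and replicate 3 for 9. Leaving out 1 array moved the fold of no called member by more than 1.24 times. The replicate block gave 2 members higher and 20 lower, and 15 partner genes higher and 20 lower; 0 of 3 verteporfin arrays matched best the DMSO array of their own number. Centred on the reference genes, 13 members were higher and 18 lower (58.1% of calls lower, against 92.0%), and 19 partner genes were higher and 18 lower. With a minimum of 2-fold, 1 member was higher and 10 lower, and 4 partner genes were higher and 8 lower. Among the genes given with a difference, those that did not pass and changed sign in an alternative were CYP2A7 (-0.074 to 0.290 when 1 array was left out, lowest without verteporfin replicate 2), CYP2D6 (-0.331 to 0.149 likewise, highest without DMSO replicate 1, and 0.037 on the reference-gene scale), GSTA5 (-0.183 to 0.037, highest without verteporfin replicate 1, and 0.084 on that scale), GSTZ1 (-0.039 to 0.156, below 0 without replicate 3 of either group), SULT2B1 (0.021 on that scale), NR1I3 (-0.047 to 0.097, lowest without DMSO replicate 3), NFE2L2 (0.121 on that scale), UGT2B28 (-0.027 to 0.058 when 1 array was left out), UGT2A1 (-0.046 to 0.030, and 0.158 on that scale), MGST3 (-0.023 to 0.028), DES (-0.064 to 0.078, and 0.175 on that scale) and COL1A1 (0.056 on that scale). The cause was not tested. Of 21 members that had not passed and were given with a difference, 11 passed in at least 1 alternative. Signal near the median level of 4.83 limits the genes named as such.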
